A study of Drosophila melanogaster with 13 samples.

Results

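The chorion amplicon DAFC-7F was described from ChIP-seq peaks of Drosophila melanogaster egg chambers. Its members are the peaks of 6 egg chamber lists on chromosome X that overlap the 300 kb from 8.3 to 8.6 Mb of Release 5 (dm3). The rule gave 338 peaks of 65511 in the 6 lists and of 83082 in all 9 lists of the series. The rule used position only, so that the heights, widths and spacing of the peaks are free of it. All egg chamber samples came from the wild-type strain OrR, without a transgene or mutation named in the labels. For each ChIP, 600 egg chambers were fixed in 2% formaldehyde, either at stage 10 or pooled from stages 12 and 13, and each stage had an antibody against SUUR, one against Cdc45, an IgG control (all made in-house) and an input. There was 1 library per group, so there are no replicates and no test between groups was possible. The egg chambers were used whole, and follicle cells, nurse cells and oocyte were not separated.

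Chorion genes encode the proteins of the eggshell, and the somatic follicle cells around the oocyte amplify them to meet a short, heavy demand for eggshell protein. At a follicle cell amplicon a replication origin fires again and again while the rest of the genome has stopped replicating, and the forks move outward on both sides, which leaves a gradient of DNA copy number that falls away from the origin. Late in amplification origin firing ends and the forks already under way move on, so that replication proteins lie on both flanks of the origin. Cdc45 is part of the helicase that opens DNA at the fork, and SUUR is a chromatin protein that slows forks and is best known from the underreplicated regions of polytene chromosomes. DAFC-7F is the X-linked amplicon. In the Release 6 gene table (Release 6 plus ISO1 MT) Cp36 and Cp38, which encode eggshell proteins, are neighbours, with Cp7Fa, Cp7Fb and Cp7Fc on one side and lncRNA:CR43834, otu, CG33181 and Nrg on the other. Only this order was taken from that table, because its coordinates are of another release than the peaks, and no peak was placed in a gene.

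The labels and the file headers disagree on the antibody in all 4 of these ChIP libraries. At both stages the list of the library labelled SUUR comes from a run that its header names Cdc45, and the reverse. Libraries are called here by their labels, and every statement on SUUR against Cdc45 has the opposite reading by run name. Stages do not carry this conflict. After duplicate removal the SUUR label kept 353742 tags at stage 10 and 4824942 at stages 12-13. The Cdc45 label kept 8265341 and 6942374 tags, and IgG kept 3891175 and 2592149. The SUUR library of stage 10 was thus 13.6 times shallower than its counterpart of stages 12-13 and 23.4 times shallower than the stage 10 library labelled Cdc45, and many of its summits stand on a few tags. The library labelled Cdc45 was 1.19 times deeper at stage 10 than at stages 12-13. The 3 lists of a stage were called against the same input.

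DAFC-7F held peaks in all 4 lists labelled SUUR or Cdc45, most of them at stages 12-13, and 1 or 2 in IgG. At stages 12-13 the list labelled SUUR held 187 peaks covering 44.2 kb, or 14.7% of the window, and the list labelled Cdc45 held 72 peaks covering 21.8 kb, or 7.28%. The stage 10 list labelled SUUR held 49 peaks covering 3.93 kb (1.31%), and that labelled Cdc45 held 27 peaks covering 2.08 kb (0.693%). IgG had 1 peak of 76 bp at stage 10 and 2 peaks, 82 bp together, at stages 12-13. The 3 lists from larval salivary glands (gamma-H2Av and IgG in OrR, gamma-H2Av in a SuUR mutant) had 0 peaks in the window. At both stages the list labelled SUUR had the greater covered length. Its library had fewer tags kept at both stages. Before duplicate removal it had more at stages 12-13, 13405963 against 12381192. The part of depth in the covered lengths was not tested.

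The window makes up 1.34% of X, by the last peak end on that arm. Against that share it held 39.5% of the peak-covered length of X in the stages 12-13 list labelled SUUR and 15.1% in the one labelled Cdc45. For stage 10 it was 9.19% in the list labelled SUUR and 1.08% in the one labelled Cdc45. For IgG it was 0.644% at stage 10 and 0.217% at stages 12-13. DAFC-7F was ranked with 1179 windows of 300 kb over 5 chromosome arms. The windows were placed every 100 kb, so neighbours overlap and a single locus can count in several of them. Of these windows 3 had a greater covered length than DAFC-7F in the list labelled SUUR at either stage, and 7 did so in the stages 12-13 list labelled Cdc45. In the stage 10 list labelled Cdc45, 280 windows ranked higher. The stage 10 library labelled Cdc45 was thus the one in which DAFC-7F did not stand near the top, with 2.08 kb against 0.572 kb in the median window and a share of X below that of the window. For IgG 153 windows ranked higher at stage 10 and 639 at stages 12-13. The stage 10 IgG count is below that of the Cdc45 label but rests on 1 peak of 76 bp. In that IgG list the median window had 0 kb, so the 2 ranks cannot be compared.

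At stages 12-13 both antibodies gave a pair of dense blocks with a central gap. Peaks less than 2 kb apart were joined into clusters, and the pair of blocks is the 2 largest clusters of at least 3 peaks. In the list labelled SUUR the left block ran from chrX:8320646-8364467 (43.8 kb, 82 peaks) and the right block from chrX:8378055-8410543 (32.5 kb, 60 peaks), with a gap of 13.6 kb between them. In the list labelled Cdc45 the left block was chrX:8339322-8355289 (16.0 kb, 30 peaks) and the right block chrX:8383706-8403048 (19.3 kb, 35 peaks), with a gap of 28.4 kb. Both blocks of the Cdc45 label lie inside those of the SUUR label, which reached further on either side. The gaps were centred close together, at 8371261 for the SUUR label and 8369497 for the Cdc45 label. Left and right here mean lower and higher coordinates on either side of the gap of the list labelled SUUR, and distances are counted from its middle.

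**Figure D1:**
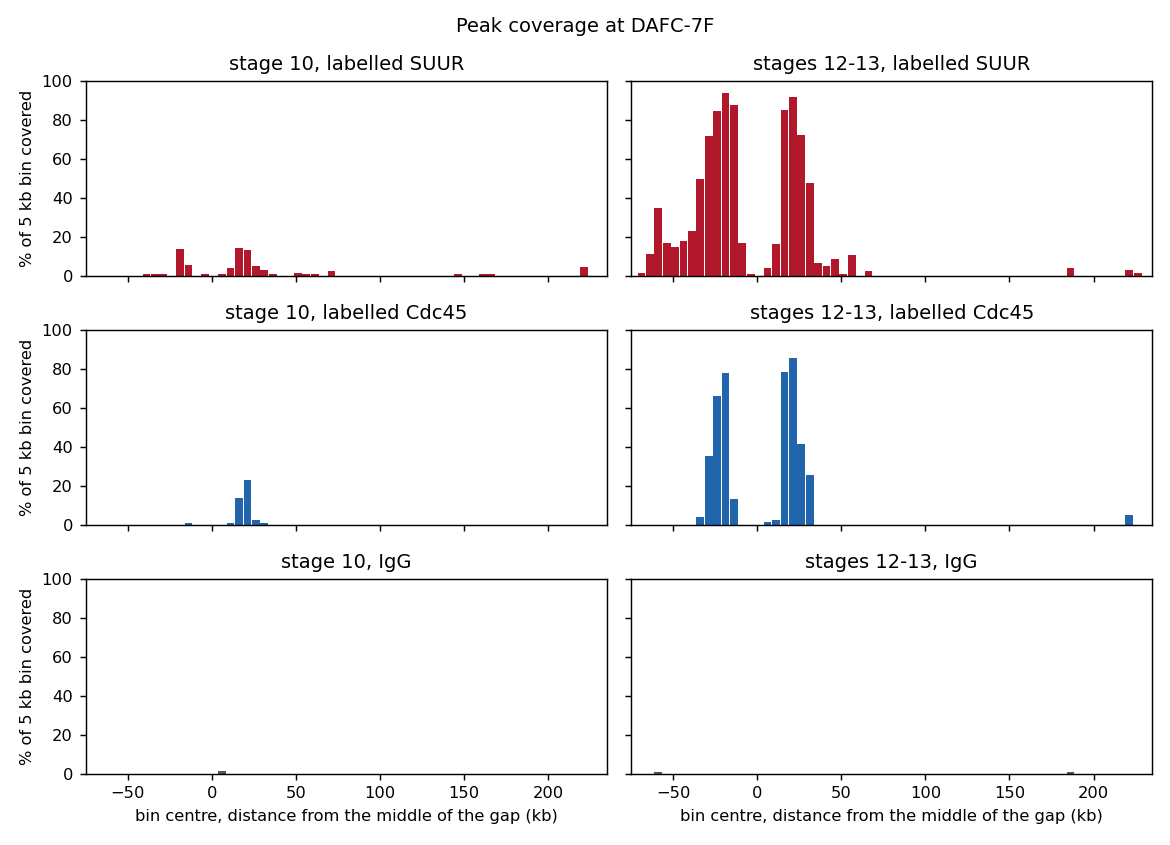
Share of each 5 kb bin covered by peaks (vertical axis, percent) against the distance of the bin centre from the middle of the gap (horizontal axis, kb), with stage 10 in the left column and stages 12-13 in the right column, and the libraries labelled SUUR (red), labelled Cdc45 (blue) and IgG (grey) in rows. At stages 12-13 each ChIP shows a tall block on either side of an empty centre, up to 93.8% of a bin for the SUUR label and 85.5% for the Cdc45 label, while no stage 10 bin passes 22.8%.

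In 5 kb bins the blocks rose to between 78.1% and 93.8% coverage and fell steeply towards the centre, while the outer left flank of the SUUR label fell slowly. Going outward from the bin that starts at 8335001, that flank had 49.5%, 22.7%, 17.8%, 14.7%, 16.8%, 34.7%, 10.9% and 1.48%. From the bin starting at 8340001 inward the coverage of the list labelled SUUR was 71.6%, 84.4%, 93.8% and 87.9%, and the next bin had 16.9%. The 3 bins that start at 8365001, 8370001 and 8375001 had 0.920%, 0% and 3.96%. On the right the bin starting at 8380001 had 16.5%, followed by 85.0%, 92.0%, 72.3% and 47.4%. The list labelled Cdc45 had 35.4%, 65.9%, 78.1% and 13.2% on the left over the same 4 bins, then 0% in 3 bins, 1.26% and 2.36%, and 78.7%, 85.5%, 41.7% and 25.6% on the right. Of 60 bins, 7 were covered to at least 50% in the list labelled SUUR and 4 in the one labelled Cdc45, against 0 in both stage 10 lists and in IgG. The lists differ on the left flank: the bin that starts at 8355001 was 87.9% covered in the SUUR label and 13.2% in the Cdc45 label.

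The balance of the flanks within the window was opposite in the labels at stages 12-13. The window is not centred on the gap. Its 5 kb bins had centres from -68.8 kb (left) to 226 kb (right), so the edge cuts the left side short at 50 to 100 kb. The list labelled SUUR had 26.2 kb covered in 106 peaks on the left and 18.0 kb in 80 peaks on the right, a difference of right minus left of -8.15 kb. The list labelled Cdc45 had 9.83 kb in 34 peaks on the left and 11.9 kb in 37 peaks on the right, a difference of 2.11 kb. Much of the left excess of the SUUR label lay far out: at 30 to 50 kb from the middle it had 6.15 kb covered on the left and 2.64 kb on the right, and at 50 to 100 kb it had 3.36 kb and 0.715 kb. The Cdc45 label had 0.838 kb and 0.934 kb at 30 to 50 kb and no peak at 50 to 100 kb on either side. The right side was the richer one in both labels at stage 10, with 2.71 kb against 1.115 kb in the SUUR label and 2.04 kb against 0.043 kb in the Cdc45 label. Right totals include peaks beyond 100 kb, where the left has no window. These covered 0.375 kb in the stage 10 SUUR label, and 0.419 kb (SUUR) and 0.249 kb (Cdc45) at stages 12-13.

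The central gap of the stages 12-13 list labelled SUUR held only short, isolated peaks in any list. The stages 12-13 list labelled SUUR had 1 peak in it, chrX:8369720-8369765, 46 bp wide with a pileup of 27 tags at its summit. In the list labelled Cdc45 1 peak lay in it, chrX:8375981-8376043, 63 bp wide with a pileup of 45 tags. Stage 10 had 2 peaks there in the list labelled SUUR, chrX:8366961-8367009 and chrX:8376733-8376788, each with a pileup of 6 tags, and 0 in the list labelled Cdc45. The wider gap of the Cdc45 label itself at stages 12-13 also held a cluster of 4 peaks, chrX:8358669-8359414, with 0.372 kb covered. The longest stretch without any peak was 8.29 kb in the SUUR label (8369766 to 8378054) and 16.6 kb in the Cdc45 label (8359415 to 8375980) at stages 12-13. It was 9.72 kb in the SUUR label (8367010 to 8376732) and 22.8 kb in the Cdc45 label (8359410 to 8382244) at stage 10. All 4 stretches overlap from 8369766 to 8375980, a core without a peak in any of the 4 lists.

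The pileup that a peak needed to be called rose towards the middle of the locus. The caller's fold is the pileup plus 1 over a local background plus 1, so the background at each summit follows from the deposited pileup and fold, and it comes from the input, whose tags scale with DNA copy number. Set over the lowest value of its list, it reached 7.17 in the stages 12-13 list labelled SUUR (summit 8379432) and 7.39 in the one labelled Cdc45 (summit 8385648). At stage 10 it reached 5.92 in the SUUR label (summit 8376734) and 3.25 in the Cdc45 label (summit 8387749). Of these 4 summits only that of the stage 10 SUUR label lay in the gap, and the others lay on its right. The bin of the stages 12-13 summit labelled Cdc45, in the right block, was 78.7% covered. At the lowest background of the stages 12-13 list labelled SUUR a pileup of 7 tags passed the authors' p-value limit, and at the highest background of this locus 26 tags were needed. For the Cdc45 label of that stage the pileup needed rose from 10 to 42 tags. At stage 10 it rose from 2 to 5 tags in the SUUR label and from 9 to 18 tags in the Cdc45 label.

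**Figure D2:**
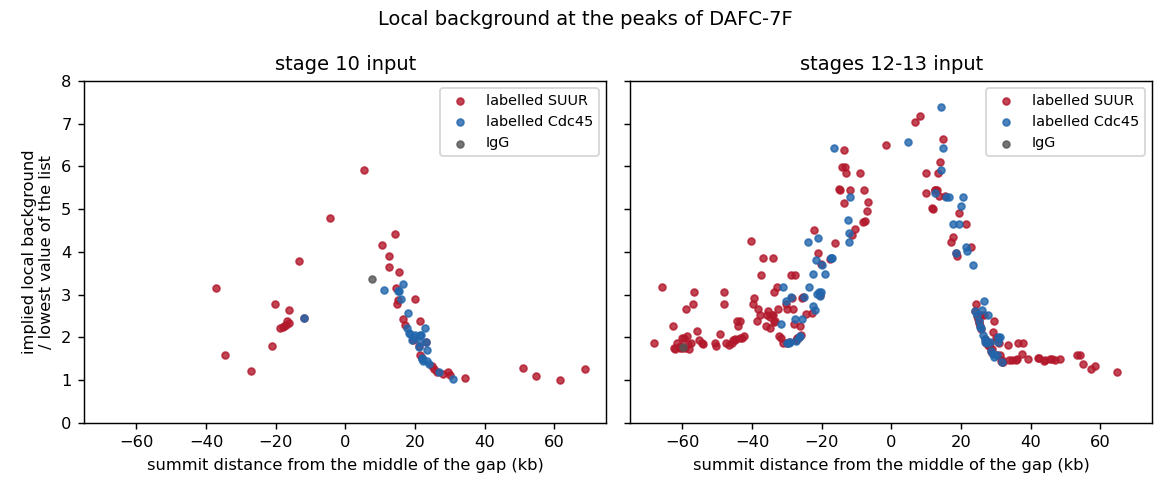
Local background at each peak summit over the lowest background of the same list (vertical axis, ratio) against the distance of the summit from the middle of the gap (horizontal axis, kb), for stage 10 (left) and stages 12-13 (right), with points for the libraries labelled SUUR (red), labelled Cdc45 (blue) and IgG (grey); 13 ChIP peaks more than 75 kb away are not drawn. The ratio reaches 5.92 at stage 10 and 7.39 at stages 12-13 and falls outward on both sides, further on the right than on the left.

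The lists of a stage share an input, so their summits sample 1 background profile at different places. At stages 12-13 the median ratio in the list labelled SUUR was 5.16 on the left and 6.44 on the right within 10 kb of the middle. It was 5.45 and 5.31 at 10 to 20 kb, then 2.61 and 2.26 at 20 to 30 kb. Further out the left flank stayed higher, with 2.39 against 1.49 at 30 to 50 kb and 1.86 against 1.36 at 50 to 100 kb. The window edge cuts the left side of this last class short. At stage 10 the SUUR label had single summits within 10 kb, at 4.79 on the left and 5.92 on the right. The median of that list was 2.35 on the left and 3.15 on the right at 10 to 20 kb, 1.80 and 1.52 at 20 to 30 kb, and 2.37 and 1.09 at 30 to 50 kb, where each side had 2 peaks. The stages were thus furthest apart at 10 to 20 kb and close on the left at 30 to 50 kb. In 10 kb bins the rise with stage was from 3.34 to 5.39 from 8380001 on and from 2.35 to 5.45 from 8350001 on in the SUUR label, and from 2.91 to 5.33 and from 2.45 to 3.85 in the Cdc45 label. In these 2 bins, 1 on each flank, the background was thus higher at stages 12-13 than at stage 10.

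The margin of the peaks around the centre varied. At stages 12-13 the last peak of the left block of the SUUR label, chrX:8364402-8364467, had a pileup of 28 tags where 21 were needed, and the first of the right block, chrX:8378055-8378123, had 26 where 26 were needed. For the Cdc45 label the left block ended with chrX:8354213-8355289, 55 tags where 38 were needed, and the right block began with chrX:8383706-8383823, 36 where 33 were needed. Peaks that bounded the longest peak-free stretch inside these edges were the one at 8369738 in the SUUR label, with 27 where 24 were needed, and those at 8359375 and 8375994 in the Cdc45 label, with 37 where 32 and 45 where 38 were needed. The same stretch at stage 10 was bounded in the SUUR label by 2 peaks of 6 tags where 4 and 5 were needed, and in the Cdc45 label by 22 tags where 15 and 21 where 18 were needed. A pileup that passed at the highest background was reached by 42 of the 187 peaks of the SUUR label (22.5%) and by 14 of the 72 of the Cdc45 label (19.4%). At stage 10 this held for 22 of 49 (44.9%) and 12 of 27 (44.4%). The other peaks, the greater part of each list, had fewer tags than the highest background called for, and the part of the background in the gap was not tested. With only the peaks that reach that pileup kept, the gap of stages 12-13 was 22.8 kb in the SUUR label and 30.3 kb in the Cdc45 label.

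Pileup, the number of tags stacked at a summit, was highest at 10 to 20 kb from the middle of the gap at stages 12-13. In the list labelled SUUR it ran from 8 to 48 tags with a median of 17, and the median over that whole list was 11. The highest summit, at 8359376, lay in a peak of 1742 bp on the left, and the next, with 44 tags at 8386733, in a peak of 1225 bp on the right. By distance the median was 27 on the left and 26.5 on the right within 10 kb, 32.5 and 29 at 10 to 20 kb, 22.5 and 17 at 20 to 30 kb, and 17 and 12 at 30 to 50 kb. The pileup needed at the same summits had medians of 21 and 24, 21 and 21, 13 and 12, and 12 and 9. Both therefore fell outward, and the margin was widest at 10 to 30 kb on the left.

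Pileup in the list labelled Cdc45 of stages 12-13 ran from 14 to 61 tags with a median of 29.5, against 15 over the whole list. The highest summit lay in the right block, in chrX:8387690-8388784, a peak of 1095 bp with a fold of 3.28. The left block had its highest summits, 55 tags each, in 2 peaks, of which chrX:8351682-8353808 was also the widest peak of this label (2127 bp) and that of highest fold (4.37). The median at 10 to 20 kb was 36 on the left and 49 on the right, and at 20 to 30 kb it was 30 and 24. The widest peak of the SUUR label, chrX:8351666-8354698 (3033 bp, pileup 43, fold 5.38), contains that left peak of the Cdc45 label. The tallest left summit of the SUUR label fell in the same place as a 58 bp peak of the Cdc45 label with a pileup of 37 and a fold of 2.01.

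**Figure D3:**
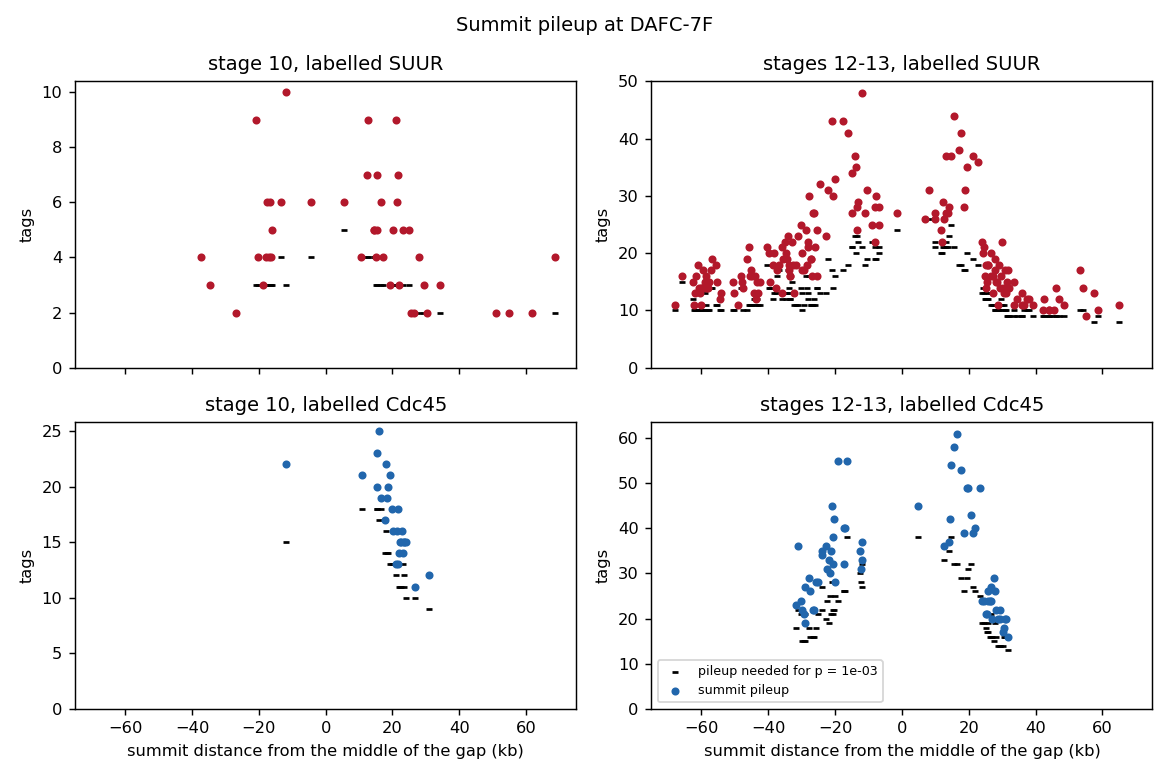
Pileup at each summit (coloured points, tags) and the smallest pileup that would pass the authors' p-value limit at the same background (black dashes, tags) against the distance of the summit from the middle of the gap (kb), for the 4 ChIP libraries, each on its own vertical scale, with the 13 peaks beyond 75 kb not drawn. At stages 12-13 both climb towards the centre from either side, to 48 and 61 tags, and the centre is almost without points.

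At stage 10 pileup was low in the shallow library. The list labelled SUUR ran from 2 to 10 tags with a median of 4. Of its 49 peaks 27 had a pileup under 5, while 90.4% of the whole list had at most 4 tags. Its highest summit, 10 tags, was at 8359386 in chrX:8359241-8359422 with a fold of 8.10. The next were chrX:8392219-8392411 with 9 tags and a fold of 7.93, and chrX:8350219-8350449 with 9 tags and a fold of 7.91. The list labelled Cdc45 ran from 11 to 25 tags with a median of 16, against 13 over the whole list. Its highest summit, 25 tags, was in chrX:8387211-8387350 on the right with a fold of 3.13. Scaled to 1000000 tags kept, the median pileups were 11.3 and 1.94 at stage 10 and 3.52 and 4.25 at stages 12-13, for SUUR and Cdc45 in that order, but a list of a shallow library holds only summits that are high once scaled, so these 4 values cannot be ranked as binding.

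The members stood high in their lists by pileup and not by fold. In the stages 12-13 list labelled SUUR 90 of 187 peaks (48.1%, Wilson 95% interval 41.1 to 55.3, counting error only) were at or above the 90th percentile of pileup, 18 tags, against 12.0% of the whole list. In the list labelled Cdc45 of that stage 58 of 72 (80.6%, 70.0 to 88.0) reached that percentile, 22 tags, against 10.1%. At stage 10 it was 32 of 49 (65.3%, 51.3 to 77.1) against 18.3% in the SUUR label, where the percentile is only 4 tags, and 12 of 27 (44.4%, 27.6 to 62.7) against 11.4% in the Cdc45 label. By fold the order turned: 7 of 187 (3.74%, 1.82 to 7.52) reached the 90th percentile in the stages 12-13 list labelled SUUR against 10.0% of the list, and 1 of 72 (1.39%, 0.246 to 7.46) in the one labelled Cdc45 against 10.0%. In the stage 10 list labelled Cdc45 0 of 27 did, which allows a share of up to 11.1%, against 10.1%. The stage 10 list labelled SUUR was the exception, with 16 of 49 (32.7%, 21.2 to 46.6) against 13.2%.

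The median fold of the members was 3.38 in the SUUR label and 2.83 in the Cdc45 label at stages 12-13, where the whole lists had 3.83 and 3.42. At stage 10 it was 3.75 against 3.49 in the SUUR label and 3.09 against 3.70 in the Cdc45 label. The members were thus below the median of their list by fold in 3 of the 4 lists and above it by pileup in all 4. Since fold is taken over the local background, the same pileup gives a lower fold nearer to the centre: at stages 12-13 the median fold of the SUUR label was 2.53 on the left and 2.24 on the right within 10 kb, and 4.14 and 3.63 at 20 to 30 kb. The highest fold of that label, 5.92, was not in either block but in chrX:8558777-8558836, 188 kb to the right, with a pileup of 16 at the lowest background of the list. Next came chrX:8344623-8344728 in the left block with a fold of 5.89 and a pileup of 27.

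Widths separated the stages. At stages 12-13 peaks of the SUUR label ran from 46 to 3033 bp with a median of 108 bp, against 80 bp over the list, and those of the Cdc45 label from 58 to 2127 bp with a median of 158.5 bp, against 102 bp. Peaks of at least 500 bp numbered 20 in the SUUR label and 11 in the Cdc45 label, and they made up 51.7% and 53.8% of the covered length. The share of such peaks over the whole lists was not counted. At stage 10 there were 0 such peaks in either list: widths ran from 49 to 231 bp in the SUUR label and from 36 to 168 bp in the Cdc45 label, with medians of 49 and 70 bp against 49 and 74 bp over the lists. In the stage 10 list labelled SUUR 26 of 49 peaks were no wider than the fragment length the caller used (49 bp). The median of that whole list was also 49 bp, so this width was not particular to the locus. The stage 10 library labelled Cdc45 was the deepest of the 4 and had no wide peak. The caller's fragment length for this label was 36 bp at stage 10, shorter than the 44 bp tags, and 58 bp at stages 12-13. The part of depth and of fragment length in the widths was not tested. The blocks of stages 12-13 are thus made of a few wide peaks with many short ones between and outside them.

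**Figure D4:**
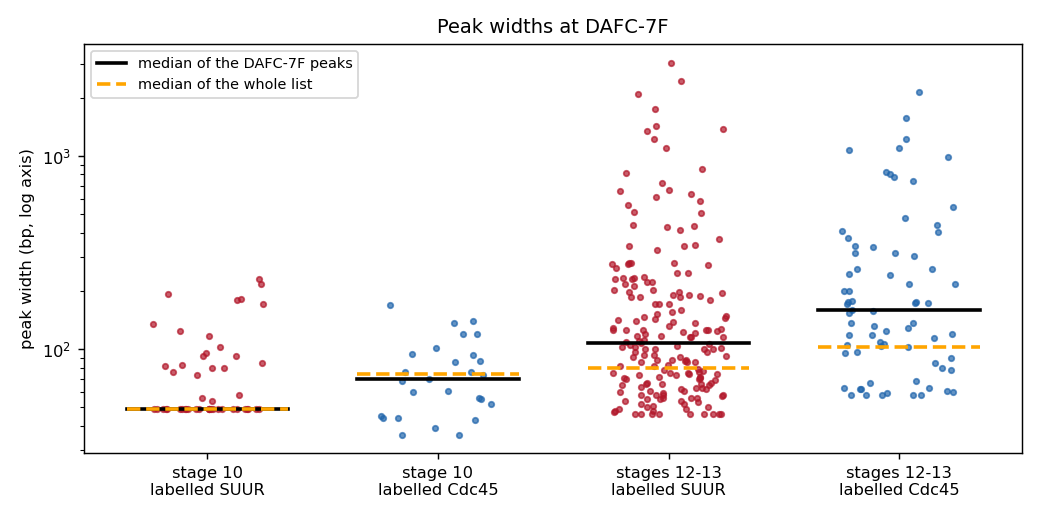
Width of each DAFC-7F peak (vertical axis, bp, log scale) in the 4 ChIP libraries, with points spread sideways at random for view, the median of the DAFC-7F peaks as a black line and the median of the whole list as a dashed orange line. Peaks over 500 bp appear only in the 2 libraries of stages 12-13, up to 3033 bp.

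The paired blocks were faint at stage 10. With peaks joined under 2 kb the pair of the list labelled SUUR lay wholly to the right of the centre, chrX:8381867-8388498 (6.63 kb, 10 peaks) and chrX:8390547-8401476 (10.9 kb, 13 peaks), 2.05 kb apart. Another cluster, of 9 peaks, lay on the left at chrX:8350219-8355207. With peaks joined under 5 kb the pair flanked the centre: chrX:8350219-8359422 (9.20 kb, 11 peaks) and chrX:8381867-8405597 (23.7 kb, 24 peaks), with a gap of 22.4 kb centred on 8370644. Within these spans 10.5% and 8.57% of the bases were covered. The stage 10 list labelled Cdc45 had no pair at either distance: 23 of its 27 peaks lay in 1 cluster on the right, chrX:8386461-8395187 (8.73 kb), and a single peak, chrX:8359367-8359409, lay on the left with a pileup of 22 and a fold of 3.21. This library was the deeper one of stage 10, and the part of depth in the pattern was not tested.

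Many stage 10 peaks overlapped a stages 12-13 peak of the same label. Of the 27 stage 10 peaks labelled Cdc45, 25 (92.6%, 76.6 to 97.9) overlapped a stages 12-13 peak of that label by 1 bp or more, against 36.3% of the whole list. Of the 49 labelled SUUR, 34 did (69.4%, 55.5 to 80.5), against 16.2%, and among its 22 peaks with a pileup of at least 5 tags 19 did. In the other direction the shares were 22 of 187 (11.8%, 7.90 to 17.2) against 6.94% in the SUUR label and 11 of 72 (15.3%, 8.75 to 25.3) against 67.4% in the Cdc45 label. The stages 12-13 peaks of the Cdc45 label thus mostly lacked a stage 10 partner, and the share with one was below that of the whole list. The stage 10 library was the deeper one, and the part of depth was not tested. A wide peak is met more easily than a short one, and the shares in either direction carry that difference in width. Dense local coverage has the same effect. In the bins from 8385001 and 8390001 the stage 10 Cdc45 label had 8 and 14 summits. The stages 12-13 list covered these bins to 78.7% and 85.5%, and the part of this coverage in the overlaps was not tested.

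Between the labels the overlap was lopsided at stages 12-13. Of the 72 peaks labelled Cdc45, 66 (91.7%, 83.0 to 96.1) overlapped a peak labelled SUUR, against 27.1% of the list. Of the 187 labelled SUUR, 49 (26.2%, 20.4 to 32.9) overlapped one labelled Cdc45, against 38.7%. At stage 10 the shares were 8 of 27 (29.6%, 15.9 to 48.5) against 3.58% for the Cdc45 label and 8 of 49 (16.3%, 8.51 to 29.0) against 17.6% for the SUUR label, which is near the share of its whole list. Lists called against 1 input can meet for that reason alone, and its part in these overlaps was not tested.

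No ChIP peak of the window met an IgG peak of its stage. At stages 12-13, 0 of 187 peaks labelled SUUR overlapped one, which allows a share of up to 1.60%, against 30.3% of the whole list, and 0 of 72 labelled Cdc45, up to 4.17%, against 16.0%. At stage 10 the counts were 0 of 49, up to 6.12%, against 9.87% in the SUUR label, and 0 of 27, up to 11.1%, against 13.2% in the Cdc45 label. With 1 IgG peak in the window at stage 10 and 2 at stages 12-13, few overlaps could have occurred, so that nothing is read from these counts or from their distance to the whole lists. The IgG peak of stage 10, chrX:8378988-8379063, had a pileup of 15 tags and a fold of 2.59, and it lay 7.77 kb right of the middle where the background ratio was 3.36. The IgG peaks of stages 12-13, chrX:8311320-8311360 and chrX:8558560-8558600, were each 41 bp wide with pileups of 13 and 8 tags. The second lies near the peak of highest fold of the SUUR label, without touching it. IgG thus had no block on either flank, at 3891175 and 2592149 tags.

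A summit came back at the same place in all 4 ChIP lists once. Summits at 8359386 and 8359378 at stage 10 and at 8359376 and 8359375 at stages 12-13, for SUUR and Cdc45 in that order, lay within 50 bp of each other. Their pileups were 10 and 22 at stage 10 and 48 and 37 at stages 12-13. This position is the highest summit of the SUUR label at both stages and the left edge of the peak-free stretch of the Cdc45 label at both stages. At 3 other places, all on the right, 3 lists met within that distance: 8383677 to 8383717, 8389801 to 8389814 and 8396794 to 8396819. The last of these counts 3 lists only through a stage 10 summit of the SUUR label with a pileup of 2 tags. By overlap rather than summit, 8 of 49 SUUR peaks and 8 of 27 Cdc45 peaks of stage 10 met a partner in all of the other lists. At stages 12-13 it was 6 of 187 and 8 of 72. The shares over the whole lists were not counted, so nothing is read from these counts.

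The edges of the window cut nothing large. In the stages 12-13 list labelled SUUR the outermost peak inside on the left was chrX:8303152-8303225 with a pileup of 11 tags, and the nearest outside was chrX:8297143-8297254 with 14 tags, 2.75 kb beyond the edge. On the right it was chrX:8595958-8596007 with 10 tags inside, and the nearest outside lay 44.7 kb beyond the edge. For the Cdc45 label the nearest peaks outside lay 36.2 kb and 44.6 kb beyond the edges. Peaks of the left flank of the SUUR label thus continue across the edge of the window, while the first peak of the Cdc45 label inside it began at 8339322.

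The other major chorion amplicon, DAFC-66D on 3L, had a greater covered length in each of the 4 ChIP lists. In an approximate window of equal size its peaks covered 131 kb in the list labelled SUUR and 71.3 kb in the one labelled Cdc45 at stages 12-13, so that DAFC-7F had 0.339 and 0.306 of that length. At stage 10 the ratio was 0.111 in the SUUR label and 0.401 in the Cdc45 label. The 2 loci differed in the coverage of the bin of highest background, which at DAFC-7F was not the same bin in every list. The 5 kb bin with the highest background of DAFC-7F was covered to 3.96% in the stages 12-13 list labelled SUUR, and that of DAFC-66D to 88.9%, at a higher background ratio (11.0 against 7.17). In the list labelled Cdc45 of that stage the bins had 78.7% and 92.8%, and at stage 10 1.12% and 82.0% in the SUUR label and 13.7% and 10.3% in the Cdc45 label. At DAFC-66D the bin of highest background was thus among the densely covered ones in 3 of the 4 lists, and at DAFC-7F in 1. At stages 12-13 the DAFC-7F bin from 8385001, where the Cdc45 label reached 7.39, was covered to 85.0% in the SUUR label. The ratio of the SUUR label reached 6.64 in that bin, so the contrast of 3.96% with 88.9% depends on which bin is taken. The background can be read only where a peak was called, and these differences between the loci were not tested.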

How the data were processed

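Peak lists of 6 egg chamber libraries were used, grouped by the sample labels. The 3 salivary gland lists served only to see whether a peak fell in the window. Reads were mapped with BWA to dm3, per the submitters' processing notes. Each library was called on its own with MACS 2.0.10.20130419 against the input of the stage, at a p-value limit of 1e-03. The genome size was 1.2e+08, tags had 44 bp and fragment lengths were 36 to 58 bp, per the file headers. The lengths of the stage 10 Cdc45 label (36 bp) and of IgG at stages 12-13 (41 bp) are shorter than the tags. The deposited signal is the pileup at the summit, in tags of that library. The deposited −log10 p-value and fold enrichment are the caller's own, and all 3 were used only within a list or to derive the background. The −log10 q-value column was not used.

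The local background was computed as (pileup + 1) / fold − 1. A Poisson upper tail with it gave back the deposited −log10 p-values to within 4.39e-05 in all 6 lists. Peaks overlap from 1 bp, and clusters join peaks less than 2 kb apart. Named peaks are the highest by pileup and fold, the widest, those at the gap and those recurring in at least 3 lists within 50 bp, and others are named for the gap and the edges. Intervals are Wilson 95%, and the limit for a count of 0 is 3 counts. Both cover counting error only. Python 3.11.15, pandas 2.3.3 and SciPy 1.17.1 were used, and the cluster, coverage and overlap steps were tested on simulated data. Alternatives were other joining distances, the upper 50% of each list by p, a window wider by 50 kb on each side, an overlap of 50%, and, chosen after seeing the data, the p-value limit at the highest background and the longest peak-free stretch. The members and the choices of description were made with earlier results of these data known. Release 5 gene positions were not used here.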

Additional observations from a re-analysis of the deposited data

Results flagged for a closer look

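The balance of the flanks had opposite signs in the labels at stages 12-13. The covered length right minus left was -8.146 kb in the library labelled SUUR and 2.108 kb in the one labelled Cdc45. It also had opposite signs between the stages of the SUUR label, 1.596 kb at stage 10 and -8.146 kb at stages 12-13. The signs held with the upper 50% of each list by p, a wider window and the p-value limit at the highest background. The window reaches further on the right than on the left. In each class of equal distance up to 50 kb the stages 12-13 SUUR label had more covered length on the left. The stages 12-13 Cdc45 label and the stage 10 SUUR label had more on the right in each of them. The local background at 30 to 50 kb was 2.39 on the left and 1.49 on the right at stages 12-13, and its part in the difference was not tested. With 1 library per group, the differences themselves were not tested.

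The median pileup scaled to 1000000 tags kept moved in opposite directions with stage, by -7.78 in the SUUR label and by 2.31 in the Cdc45 label (stages 12-13 minus stage 10). The difference of SUUR minus Cdc45 was 9.37 at stage 10 and -0.726 at stages 12-13. The stage 10 library labelled SUUR had 353742 tags, where a pileup of 2 tags passed the p-value limit. The part of depth in these differences was not tested, nor were the differences.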

How the results depend on the processing

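No paired analysis was possible because each group has 1 library. With the upper 50% of each list by p, the window held 25 peaks of the stage 10 SUUR label (2.56 kb covered), 6 of the Cdc45 label (0.453 kb) and 0 of IgG (0 kb). At stages 12-13 it then held 116 of the SUUR label (38.1 kb) and 49 of the Cdc45 label (19.0 kb). In a window wider by 50 kb on each side the covered lengths were 4.09, 2.35, 44.8 and 22.3 kb, for SUUR and Cdc45 at stage 10 and then at stages 12-13. With the p-value limit at the highest background, chosen after seeing the data, there were 22, 12, 42 and 14 peaks, covering 2.34, 0.850, 23.9 and 10.7 kb in the same order.

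The gap moved too. In the stage 10 list labelled SUUR, 2.05 kb became 22.4 kb with joining under 5 kb, 3.44 kb both with the upper 50% by p and with the p-value limit at the highest background, and 9.72 kb as the longest peak-free stretch. At stages 12-13, 13.6 kb in the SUUR label became 22.1 kb with joining under 1 kb, 22.8 kb under either p limit and 8.29 kb as the peak-free stretch. In the Cdc45 label 28.4 kb became 30.2 kb under 1 kb, 24.3 kb under 5 kb, 30.6 kb with the upper 50% by p, 30.3 kb with the limit at the highest background and 16.6 kb as the peak-free stretch. The share of stage 10 peaks labelled SUUR that met the other label was 8% with the upper 50% of both lists. Of the recomputed values 56 were counted as close to the reported one and 42 as moved, by unlike rules. Counts were judged by their ratio, and lengths by a narrow interval over the bases of the window. In the wider window 195 peaks for 187 thus counted as close, and 44.8 kb for 44.2 kb as moved (SUUR label, stages 12-13). The tally is therefore no measure of how stable the results are. No difference between the flanks changed sign. Depth limits the stage 10 library labelled SUUR most, as the shallowest of the libraries. In the window 27 of its 49 summits had under 5 tags, and 90.4% of its whole list had at most 4 tags.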
